A study of Danio rerio with 31 samples.

Results

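The genes described here are 7 transcription factors of muscle formation in zebrafish: the 4 myogenic regulatory factors myod1, myf5, myog and myf6, and the 3 mef2 genes mef2a, mef2ca and mef2d. They were taken from the array by matching the accession of every probe to the NCBI gene of that name, with mef2a standing for the gene NCBI now calls mef2aa. All 7 were present, out of 11482 genes that could be matched, and they were read by 11 of the 43603 probes. Of these, myf5 and myf6 had 2 probes each, mef2ca had 3 and the other 4 genes had 1. All 11 probes lay well above background on every array, so no member was lost to a filter on dim probes.

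The data were Agilent one-colour arrays of whole zebrafish larvae, 1 pool of larvae per array. In the time course, WT larvae of the AB strain raised under a light/dark cycle of 14 h light and 10 h dark were kept from 5 dpf either in constant darkness (DD) or under the same cycle (LD), and 12 DD and 12 LD pools were collected together every 4 h from 0 to 44 h. In the other set, at 48 and 50 hpf, 3 arrays held larvae injected with a morpholino against the pigment cell factor mitfa (1 at 48 hpf and 2 at 50 hpf), 2 held larvae injected with a control morpholino and 2 held uninjected WT larvae (1 of each at each age). Each DD time point and each LD time point was 1 array, so the error of every value below comes from the scatter around a fit and not from repeated pools, and nothing in the labels says whether the arrays of the second set came from separate clutches. The mitfa morpholino was designed against the start codon, and the level of its own transcript therefore does not check the knock-down. The pigment cell gene slc24a5, an ion exchanger needed for melanin formation, read 6.74 at 48 hpf and 7.02 and 6.75 at 50 hpf in the mitfa morphants, against 7.58 at 48 hpf and 6.95 at 50 hpf in the control morphants and 7.63 and 7.26 in WT. The difference was -0.52 ± 0.19 and did not pass (limma adjusted p = 0.15), with 1 mitfa morphant array at 50 hpf (7.02) above the control morphant array of that age (6.95). The study listed slc24a5, tyr, tyrp1b and dct as lower in the mitfa morphants on arrays. It also reported lower slc24a5, tyrp1b and dct by real-time PCR and a loss of melanin in the trunk. Of these genes only slc24a5 was read here as a check.

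The myogenic regulatory factors are basic helix-loop-helix proteins that bind E-box sequences as dimers with E proteins such as the products of tcf3 and tcf12, and Id proteins hold them back by taking up the same partners. Myf5 and Myod commit cells to the muscle lineage, Myog drives the differentiation and fusion of myoblasts, and Myf6 (also called Mrf4) is the member best known from differentiated fibres. The Mef2 proteins are MADS-box factors that cannot start myogenesis alone but act with the myogenic factors on muscle genes. They also act in the heart, in neurons and in skeletal patterning, and class II histone deacetylases keep them inactive.

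Signals were brighter in the time course (median processed signal 214.8 to 339.1 per array) than at 48 and 50 hpf (41.9 to 60.4), and the 2 sets were normalized and tested apart. Each slide carried 4 arrays. The time course used 3 slides for DD and 3 others for LD, each with 4 successive time points (0 to 12 h, 16 to 28 h and 32 to 44 h), so slide and stretch of time, and slide and light condition, cannot be told apart. At 48 and 50 hpf the 2 ages lay on 2 slides, and age and slide cannot be told apart. Because whole larvae were used, fewer muscle cells and less RNA per muscle cell cannot be told apart either. The 7 markers of fast and slow skeletal muscle, acta1b, mylpfa, ckma, tnnt3b, smyhc1, smyhc2 and tnnc1b, were detected in both sets.

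The first question was whether the members oscillated. Of the 7, myog and mef2a met the study's rule for a daily rhythm in both DD and LD, myog with its fitted peak in the second part of the light phase and mef2a with a peak near lights-on. In the stricter cosine test myog alone passed by its brightest probe, in LD, and no member passed in DD. The myog transcript peaked at 12.84 (12 h) and 12.95 (36 h) on the log2 intensity scale in DD and at 13.23 (12 h) and 12.91 (36 h) in LD. At 0 and 24 h it read 12.22 and 11.77 in DD and 12.39 and 11.90 in LD, and its lowest value in LD was 11.76, at 44 h. All 4 cycles, 2 in each condition, therefore held the highest value at CT12 (circadian time, in hours from lights-on at CT0, with lights-off at CT14).

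A cosine of 24 h was fitted to the 12 arrays of each condition, with the SE taken from the shared scatter of all 24 arrays. For myog it gave an amplitude of 0.39 ± 0.10 (SE) in DD and 0.53 ± 0.10 in LD. That is a peak 1.71-fold above the trough in DD and 2.09-fold in LD. The fitted peak was at CT11.1 ± 0.96 h in DD and CT10.5 ± 0.69 h in LD. In limma's F test of the cosine terms adjusted by Benjamini-Hochberg over the 35412 detected probes, myog passed in LD (adjusted p = 0.0029) and missed the 5% threshold in DD (adjusted p = 0.071). Among all detected probes 3.11% passed in DD and 11.9% in LD. The DD value passed once a straight line was removed from each course (adjusted p = 0.010), with slide as a random block (adjusted p = 0.024) and after normexp background correction (adjusted p = 0.034). Leaving out the DD array at 24 h, which held the lowest value of that course, raised it to 0.23. That array also had the lowest share of spots well above background in the time course, 75.2%, where the highest was 92.0%.

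In Fisher's g test, which asks whether 1 period dominates the periodogram of 12 points, myog had p = 0.014 in DD and p = 0.034 in LD by this exact test, with 24 h as the dominant period in both. The study called a gene a zebrafish circadian oscillating gene (ZCOG) when 24 h dominated and p was under 0.5 in both conditions, a rule that 12.7% of all detected probes met. By it, 2 of the 7 members were ZCOGs, myog and mef2a. The study had singled out both on these arrays, so this is not independent evidence. It also measured both by real-time PCR, which was not analysed here. With p under 0.05 asked in both conditions, which 2.94% of probes met, myog alone remained among the members.

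The mef2a transcript ranged from 10.71 to 11.44 in DD (median 11.02) and from 10.79 to 11.38 in LD (median 11.16). In DD the highest values were those at 0 h (11.44) and 24 h (11.28), and in LD those at 28 h (11.38) and 0 h (11.37). The fitted amplitude was small, 0.20 ± 0.07 in DD and 0.22 ± 0.07 in LD, with peaks at CT2.46 ± 1.30 h in DD and CT0.80 ± 1.14 h in LD. Neither passed limma's F test (adjusted p = 0.25 in DD and 0.075 in LD), and the g test gave p = 0.37 in DD and 0.071 in LD (exact). The ZCOG call of mef2a was lost when a straight line was removed from each course (larger g test p = 0.70) and in the first 24-h cycle alone (0.84). The fitted myog peak came 8.61 ± 1.61 h after that of mef2a in DD and 9.71 ± 1.34 h after it in LD. Of these fits only that of myog in LD passed the cosine test, so the gap describes fitted peaks.

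**Figure D1:**
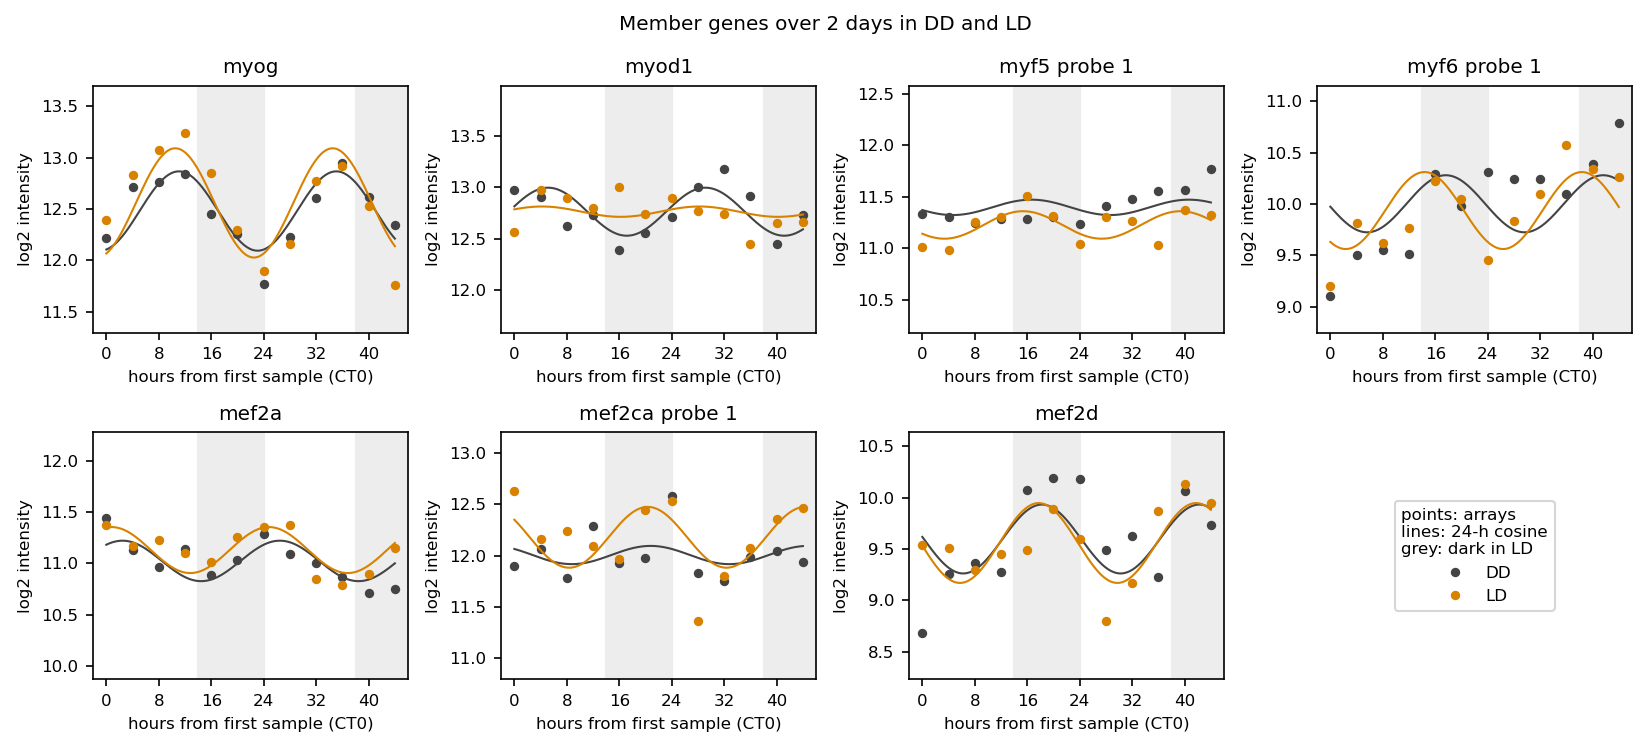
Log2 intensity of each member (brightest probe) on every DD and LD array against hours from the first sample, with the fitted 24-h cosine of each condition as lines and the dark hours of LD in grey; every panel spans the same 2.4 log2 units. The myog points trace 2 cycles in both conditions with the highest value of each cycle at 12 or 36 h, and the myf6 points climb over the 2 days.

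Among the other mef2 genes, mef2d showed the widest swing. It ranged from 8.68 at 0 h to 10.19 at 20 h in DD and from 8.80 at 28 h to 10.14 at 40 h in LD. Its fitted peaks were close, CT18.2 ± 1.61 h in DD and CT17.7 ± 1.39 h in LD, at amplitudes of 0.34 ± 0.14 in DD and 0.39 ± 0.14 in LD, but neither passed (limma adjusted p = 0.42 in DD and 0.16 in LD). In DD the dominant period of mef2d was 48 h (g test p = 0.80), so it was no ZCOG. In LD its 24 h period had an exact g test p of 0.13, under the limit of 0.15 that the study set for a rhythm in 1 condition and that 16.8% of probes met in LD.

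The 3 mef2ca probes did not agree. Probes 1 and 2 followed each other closely over the 24 arrays (r = 0.95), whereas probe 3 followed them loosely (r = 0.33 and 0.32); the points share slides and time of day. In LD, probe 2 held 12.55 at 0 h, 12.51 at 20 h, 12.52 at 24 h and 12.40 at 44 h, against 11.32 at 28 h, and its cosine passed (amplitude 0.40 ± 0.10, peak at CT20.7 ± 1.00 h, limma adjusted p = 0.039). Probe 1, the brightest, had an amplitude of 0.30 ± 0.11 with a peak at CT20.4 and missed the threshold (adjusted p = 0.18), as did probe 3 (0.23 ± 0.10, adjusted p = 0.24). In DD none of the 3 passed, with amplitudes of 0.09 to 0.17 (adjusted p = 0.60 to 0.89). Which transcript each probe reads was not tested.

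The remaining myogenic factors passed in neither condition. The myod1 transcript kept within 12.39 to 13.18 in DD and 12.45 to 13.00 in LD, with an amplitude of 0.23 ± 0.08 in DD (peak at CT5.14 ± 1.24 h, adjusted p = 0.21) and 0.05 ± 0.08 in LD (adjusted p = 0.88). The myf5 amplitude of the brighter probe was 0.07 ± 0.07 in DD and 0.13 ± 0.07 in LD (adjusted p = 0.82 and 0.38). The 2 myf6 probes gave 0.28 ± 0.16 and 0.39 ± 0.21 in DD and 0.37 ± 0.16 and 0.55 ± 0.21 in LD, with peaks between CT14.3 and CT17.6, and neither passed in either condition (adjusted p = 0.57 to 0.60 in DD and 0.19 to 0.24 in LD). In DD the largest component of both myf6 probes was the 48 h one, the length of the whole series.

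**Figure D2:**
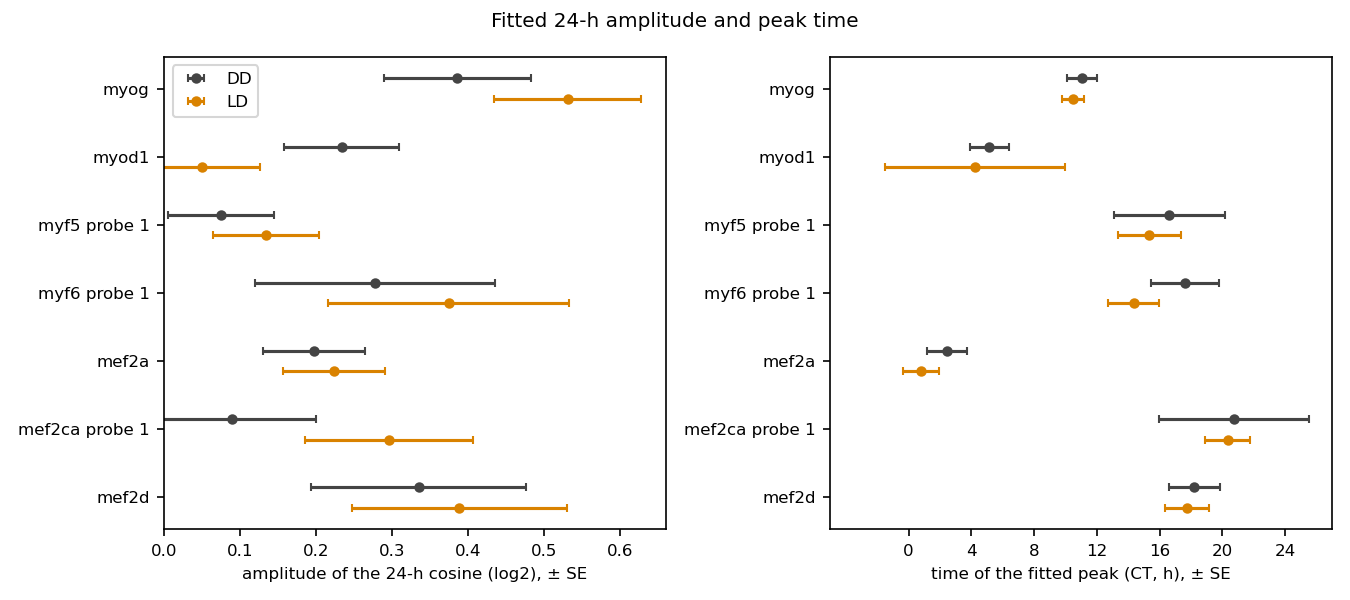
Fitted amplitude (left, log2) and time of the fitted peak (right, CT in hours) of the 24-h cosine for each member's brightest probe, DD above LD, with bars of 1 SE. The DD and LD peaks of myog lie at CT11.1 and CT10.5 and those of mef2a at CT2.46 and CT0.80, and where the amplitude is near its SE (myod1 in LD, myf5 and mef2ca in DD) the peak time is poorly fixed.

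In order of the fitted peak in LD, mef2a was followed by myod1, myog, myf6, myf5, mef2d and mef2ca. Of these fits only that of myog in LD passed the cosine test, so the order describes fitted peaks and not shown rhythms. Most neighbours in this order lay within 2 SE of each other: myf5 came 1.00 ± 2.57 h after myf6, mef2d 2.39 ± 2.43 h after myf5 and mef2ca 2.61 ± 2.00 h after mef2d. The steps over 2 SE in LD were from myog to myf6 (3.84 ± 1.76 h) and from mef2ca round to mef2a (4.45 ± 1.83 h). In DD the order was the same but for myf5 and myf6, and the step from myod1 to myog was 5.92 ± 1.56 h.

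The second question was whether rhythm or level differed between DD and LD. No member's rhythm differed past the threshold in limma's test of the interaction (adjusted p = 0.9999 for all 11 probes), in a test that called 0% of all probes, with 1191 of 35412 at an unadjusted p under 0.05. For myog the amplitude in DD minus that in LD was -0.15 ± 0.14, and the peak time differed by 0.56 ± 1.18 h. For mef2a these were -0.03 ± 0.09 and 1.66 ± 1.73 h. The largest amplitude differences, -0.28 ± 0.15 for mef2ca probe 2 and -0.21 ± 0.16 for probe 1, also stayed under 2 SE.

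Nor did any member's mean level differ, in a comparison paired by time point that called 17.2% of all probes. The brighter myf5 probe averaged 11.40 in DD and 11.23 in LD and was higher in DD at 8 of 12 time points (difference 0.17 ± 0.06, limma adjusted p = 0.084). It passed when the pair at 16 h was left out, whether by its DD or its LD array (0.21, adjusted p = 0.037). The mef2a mean was 11.02 in DD and 11.13 in LD (-0.11 ± 0.05, adjusted p = 0.21), and mef2ca probe 1 averaged 12.01 in DD and 12.18 in LD (-0.17 ± 0.09, adjusted p = 0.23). The other members differed by at most 0.12 in either direction. At 0 h, before the light of the first day, DD and LD pools had shared the same light history, and there the DD minus LD difference was already -0.86 for mef2d, -0.73 for mef2ca probe 1, 0.40 for myod1 and -0.17 for myog. For mef2d and mef2ca the gap at 0 h was wider than any negative gap at the later times (-0.64 for mef2d and -0.53 for mef2ca).

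The third question was how the members changed from the first to the second day of sampling, and here 2 of the 7 moved, in opposite directions. The myf6 transcript rose on the second day at every clock time in both conditions, and that of myog fell. The middle slide of each condition held arrays of both days, but every pair of arrays at the same clock time lay on different slides. The fit held no term for slide, so the change between days was not separated from slide. In the comparison by limma with condition and clock time as blocks, 23.5% of all detected probes were higher and 20.6% lower on the second day, so a change in either direction was common on these arrays.

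In DD the brighter myf6 probe averaged 10.34 on the second day and 9.66 on the first, and in LD 10.09 on the second and 9.78 on the first. At 0 h it was at its lowest in both conditions, 9.10 in DD and 9.20 in LD, and its highest values were 10.79 in DD, at 44 h, and 10.57 in LD, at 36 h. The second day exceeded the first in all 12 pairs of arrays, by 0.09 to 1.21 in DD and by 0.02 to 0.81 in LD. The pairs share 3 slides per condition and are not 12 separate checks. The mean change was 0.50 ± 0.10 (1.41-fold, adjusted p = 0.0013). The other myf6 probe, whose course matched (r = 0.98), rose by 0.72 ± 0.11 (1.65-fold, adjusted p = 1.7e-04), also in 12 of 12 pairs. Within DD the difference was 0.69 ± 0.13 and 0.88 ± 0.15 for the 2 probes (adjusted p = 0.0022 and 0.0012, in a comparison that called 24.5% of probes). Within LD it was 0.32 ± 0.13 and 0.55 ± 0.15 (adjusted p = 0.072 and 0.012, with 35.7% called). The DD change minus the LD change was 0.37 ± 0.18 and 0.33 ± 0.21, which did not pass (adjusted p = 0.52 and 0.61).

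The myog transcript averaged 12.42 on the second day and 12.54 on the first in DD, and 12.34 on the second and 12.78 on the first in LD. In LD it was lower on the second day at all 6 clock times, with differences of -0.68 at CT4 to -0.30 at CT8, and the mean change was -0.44 ± 0.10 (0.74-fold, limma adjusted p = 0.0042). In DD it was lower at CT0, CT4 and CT8 and higher at CT12, CT16 and CT20, with a mean change of -0.12 ± 0.10 (adjusted p = 0.41). Over both conditions the change was -0.28 ± 0.08 (adjusted p = 0.011). The DD change minus the LD change was 0.32 ± 0.14, with an unadjusted limma p of 0.037 and an adjusted p of 0.48, so the conditions were not shown to differ. Without clock time in the fit, which then counts the daily rhythm as error, the fall of myog no longer passed (adjusted p = 0.15 over both conditions and 0.13 in LD).

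The other 5 members did not pass. The mef2a change was -0.13 ± 0.05, with 10 of 12 pairs lower on the second day (adjusted p = 0.057), and it passed without the DD arrays at 8 or 32 h (adjusted p = 0.047) or the LD arrays at 4 or 28 h (adjusted p = 0.015). The myod1 change was 0.00 ± 0.08, with DD higher in 5 of 6 pairs and LD higher in 1 of 6. Changes of mef2d (0.15 ± 0.15) and of the 3 mef2ca probes (-0.10 to 0.14) lay within 2 SE. The brighter myf5 probe changed by 0.10 ± 0.06 and the dimmer one by 0.25 ± 0.16.

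**Figure D3:**
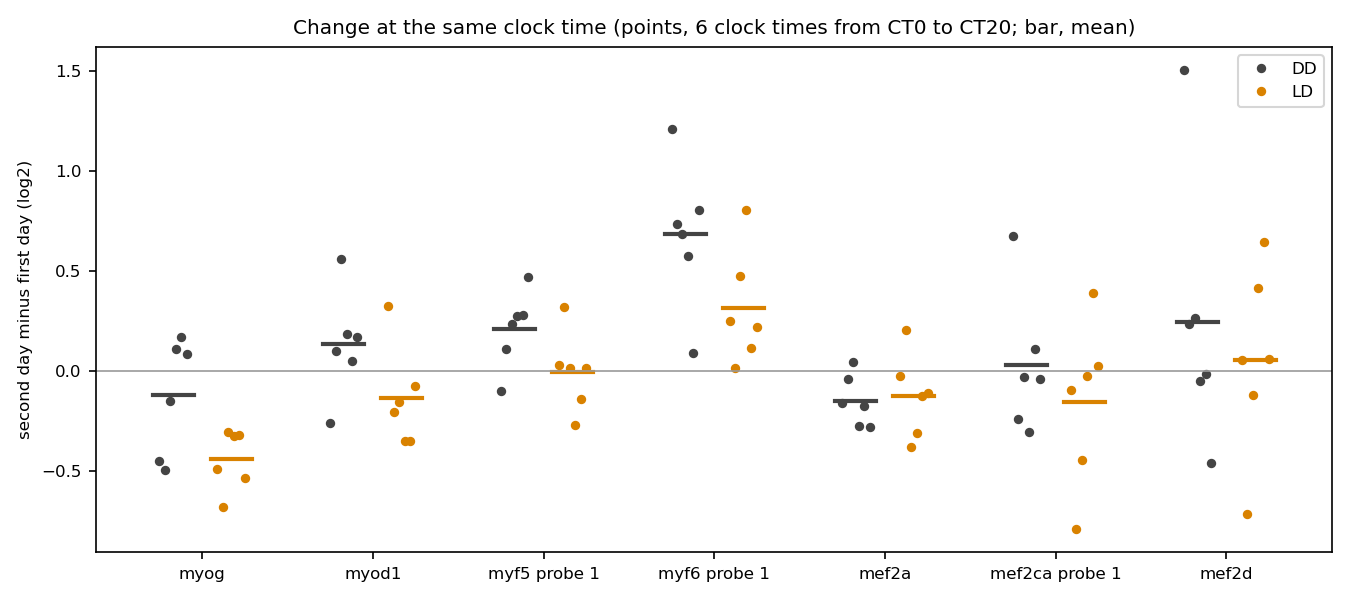
Second day minus first day (log2) for each member's brightest probe at the same clock time, 6 points in DD and 6 in LD, with bars at the mean. All 12 myf6 points lie above 0 and all 6 LD points of myog lie below it, while the DD points of myog fall on both sides.

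The dimmer myf5 probe stepped between slides. In DD it held 9.29 to 9.48 on the slide of 0 to 12 h, 8.62 to 8.93 on that of 16 to 28 h and 9.37 to 9.85 on that of 32 to 44 h, and in LD 8.99 to 9.24, 8.76 to 9.01 and 9.57 to 9.68. Differences between slides made up 90.7% of its spread over the 24 arrays, against a median of 49.8% over all detected probes and 86.7% at their 95th percentile. The brighter myf5 probe did not take these steps (r = 0.39 between the 2). Both of the g test results that marked the dimmer probe (p = 0.0016 in DD and 0.072 in LD, exact) were for a period of 48 h. For myf6, 73.2% and 74.9% of the spread lay between slides, for myog 35.7% and for mef2a 55.8%. With slide as a random block the day changes of myf6 (0.47, limma adjusted p = 0.013) and myog (-0.31, adjusted p = 0.015) passed. The block used 1 correlation for all probes, and every pair at the same clock time lay on different slides. It was therefore not taken to separate a slide step of these genes from a change between days. The genes myf5 and myf6 are neighbours on 1 chromosome with no protein-coding gene between them in the current NCBI annotation, and over the 24 arrays their brighter probes had r = 0.50 (0.39 with slide means removed).

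**Figure D4:**
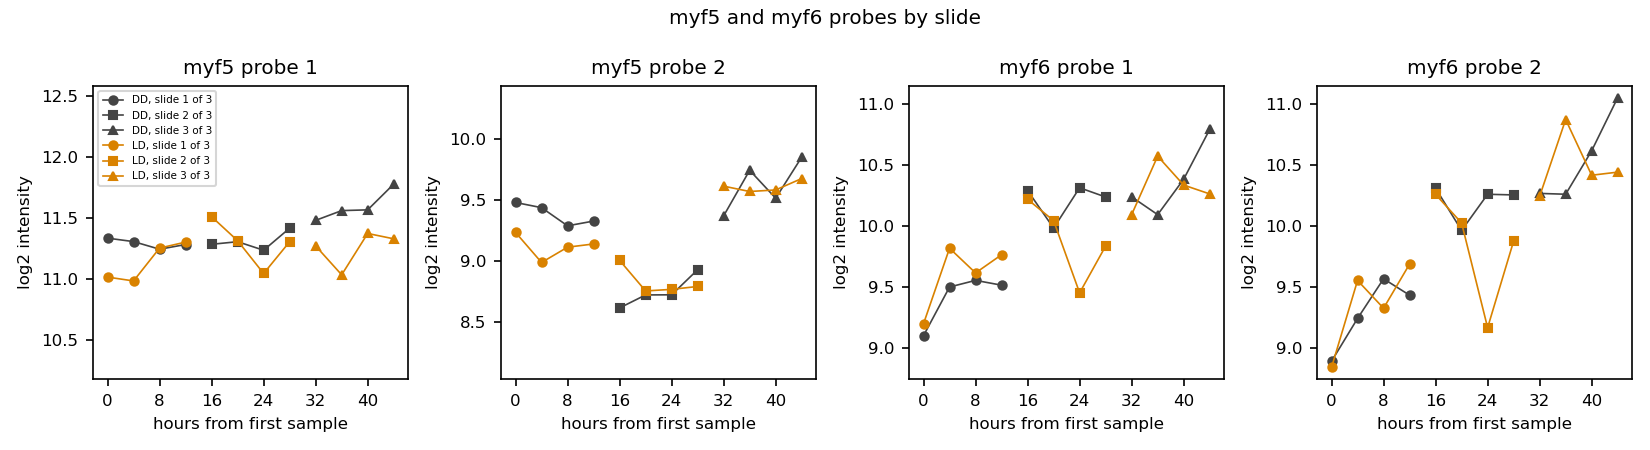
Log2 intensity of the 2 myf5 and 2 myf6 probes against hours from the first sample, with a separate symbol and line for each of the 3 slides of DD and of LD. The dimmer myf5 probe drops on the second slide and rises on the third in both conditions, while the myf6 probes rise from the first slide to the third.

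Across the 24 arrays the members did not follow a common course. The strongest correlations between members were -0.72 between myf6 and mef2a, 0.61 between myf6 and mef2d and -0.53 between myod1 and mef2d. After the mean of each slide was removed the strongest was -0.78, between myog and mef2a. These are descriptions over arrays that share time of day, slides and larval age.

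Among 10957 other genes with an NCBI match, the courses most like myog were those of gstt1b (r = 0.88), a glutathione S-transferase, ftcd (0.87), an enzyme of histidine breakdown, and mnd1 (0.85), a meiotic recombination factor. For mef2a they were dnmt3ab (0.90), a DNA methyltransferase, slit2 (0.90), an axon guidance ligand, and atp1b2b (0.90), a sodium pump subunit. For myf6 they were med8 (0.96), a Mediator subunit, acp2 (0.96), a lysosomal acid phosphatase, and klhl38a (0.96). For mef2d they were rbm22 (0.92), nt5c2b (0.91) and marchf5l (0.90), and for mef2ca fstl5 (0.81), sec63 (0.79) and sptlc3 (0.78). For myf5 they were zgc:162297 (0.83), hoxb1b (0.78) and trpm1b (0.78). The likeness was lowest for myod1, with btc (0.70), galnt7 (0.69) and uqcrq (0.69).

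Genes that work with the members were described in the same comparisons, each by its brightest detected probe. Among partners and inhibitors, 14 of 23 listed genes had a probe matched by accession and were detected. Of these, 4 passed the cosine test in LD (11.9% of all probes) and none passed in DD (3.11% of all probes). The 4 were tcf3a, which encodes an E protein (amplitude 0.46, peak at CT13.1, limma adjusted p = 0.0080), and the inhibitors id3 (0.45, CT17.4, adjusted p = 7.3e-04), id4 (0.26, CT14.7, adjusted p = 0.031) and id2a (0.23, CT16.9, adjusted p = 0.011). Their fitted LD peaks fell after that of myog at CT10.5. By the ZCOG rule tcf3a, tcf12, id2a and id4 passed, 4 of 14, against 12.7% of all probes. On the second day tcf3a (0.29), hdac4 (0.22) and tcf12 (0.16) rose and none of the 14 fell, where 23.5% of all probes rose and 20.6% fell, with medians of 0.04 over the list and 0.03 over all probes. In DD against LD, tcf3a (0.21) and id1 (0.21) were higher and hdac9b, a class II histone deacetylase, was lower (-0.38), where 17.2% of all probes differed in either direction, with medians over the list of 0.07 and over all probes of -0.0014.

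Of the upstream regulators, 16 of 20 were detected. None passed the cosine test in either condition, where 3.11% of all probes passed in DD and 11.9% in LD. By the ZCOG rule met and six4b passed, 2 of 16, against 12.7% of all probes. On the second day 4 rose and 4 fell (23.5% and 20.6% of all probes), with a median of 0.06 against 0.03 over all probes. The 4 that changed most were the T-box factors tbx16 (0.91, limma adjusted p = 6.4e-04) and tbx6 (0.68, adjusted p = 3.2e-05), six4a (0.40, adjusted p = 6.4e-05) and meox1 (-0.31, adjusted p = 1.9e-04).

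Of the listed muscle genes, 32 of 40 were detected. None passed the cosine test in either condition (3.11% of all probes in DD and 11.9% in LD). The genes chrna1 and unc45b met the ZCOG rule, as did 12.7% of all probes. On the second day 6 of the 32 rose and 12 fell, against 23.5% and 20.6% of all probes, with medians of -0.07 over the list and 0.03 over all probes. The largest changes were falls of acta1b, a skeletal actin (-0.87, limma adjusted p = 1.9e-06), unc45b, a myosin chaperone (-0.82, adjusted p = 8.5e-06), and cavin4b, a caveolar protein of muscle (-0.72, adjusted p = 9.1e-06), and a rise of klhl31 (0.64, adjusted p = 5.5e-06). In DD, 5 were higher than in LD and 2 were lower, in the comparison that called 17.2% of all probes, with medians of 0.04 over the list and -0.0014 over all probes. The 4 with the largest differences were mymk, the fusion factor myomaker (0.43), smyd1a (0.42), ryr1b (0.39) and klhl31 (0.35). Of the cardiac partners of Mef2, 7 of 9 were detected. Both gata4 (amplitude 0.93, peak at CT19.6, adjusted p = 0.0011) and gata6 (0.27, CT20.5, adjusted p = 0.015) passed the cosine test in LD, as did 11.9% of all probes. On the second day hand2 fell, as did 20.6% of all probes. The 1 other mef2 gene with a probe matched by accession, mef2cb, passed no comparison.

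The mean log2 level of the 7 skeletal muscle markers was 16.40 to 16.65 per array on the second day and 16.55 to 16.75 on the first in DD, and 16.44 to 16.62 on the second and 16.46 to 16.76 on the first in LD. Among them 1 rose (ckma) and 2 fell (acta1b and tnnc1b). Of 10 detected markers of heart, neurons, liver, skin and blood, 4 rose and 2 fell on the second day, and all 10 lay above background on every array. Over all detected probes 23.5% rose and 20.6% fell in this comparison. The part of these shifts in the changes of myf6 and myog was not tested.

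The last comparisons were those at 48 and 50 hpf. No member passed in limma's test of the 3 mitfa morphant arrays against the 4 others, which called 1.2% of 30508 detected probes. The nearest was myf5. Its brighter probe read 8.95, 9.05 and 9.05 in the mitfa morphants, against 8.50 and 8.32 in the control morphants and 8.08 and 7.74 in WT. The groups did not overlap, as was so for 11.9% of all probes in this direction. The difference was 0.86 ± 0.18 (1.81-fold, adjusted p = 0.056). It passed after normexp background correction (0.65, adjusted p = 0.028), where 5.72% of all probes were called. Among probes well above background on every array it also passed (adjusted p = 0.0497), where 2.76% were called. The difference was 0.61 against the control morphants alone (adjusted p = 0.14) and 1.11 against WT alone (adjusted p = 0.067). Leaving out 1 array at a time gave 0.72 to 0.97 (adjusted p = 0.056 to 0.20). The dimmer myf5 probe read 6.31, 5.79 and 5.72 in the mitfa morphants, against 5.96 and 4.50 in the control morphants and 5.02 and 4.78 in WT (0.87 ± 0.34, adjusted p = 0.18), with overlap.

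For mef2a the mitfa morphants read 7.91, 7.52 and 7.96, against 7.99 and 7.96 in the control morphants and 8.17 and 8.27 in WT, a difference of -0.30 ± 0.15 (limma adjusted p = 0.28). All 3 lay below the 4 others, as was so for 11% of all probes, though the highest mitfa morphant value and the lowest of the others both rounded to 7.96. For myog 1 of the 3 mitfa morphant arrays was low: they read 9.56, 8.67 and 9.68, against 9.48 and 9.74 in the control morphants and 9.63 and 9.75 in WT (-0.35 ± 0.24, adjusted p = 0.43). The myf6 probes were higher by 0.47 ± 0.20 and 0.37 ± 0.19 (adjusted p = 0.21 and 0.29). The myod1 (0.27 ± 0.26), mef2ca (-0.14 to 0.04 for 3 probes) and mef2d (-0.31 ± 0.26) differences were within 2 SE. None of the detected partners, upstream regulators, muscle genes and cardiac partners passed in this comparison. The 7 muscle markers averaged 13.69 to 14.13 in the mitfa morphants and 13.91 to 14.25 in the others, with single differences from -1.51 (smyhc2) to 0.31 (tnnc1b). The 4 heart markers averaged 9.12 to 9.32 against 8.78 to 9.17, and the 2 neuron markers 10.79 to 11.03 against 11.18 to 11.57. The liver marker fabp10a read 5.01 to 6.77 against 5.66 to 9.00. The 2 skin markers averaged 16.72 to 16.86 against 16.66 to 16.83, and the blood marker hbae1.1 read 16.87 to 17.03 against 16.97 to 17.24. None of these markers passed. The part of these shifts in the myf5 values was not tested.

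**Figure D5:**
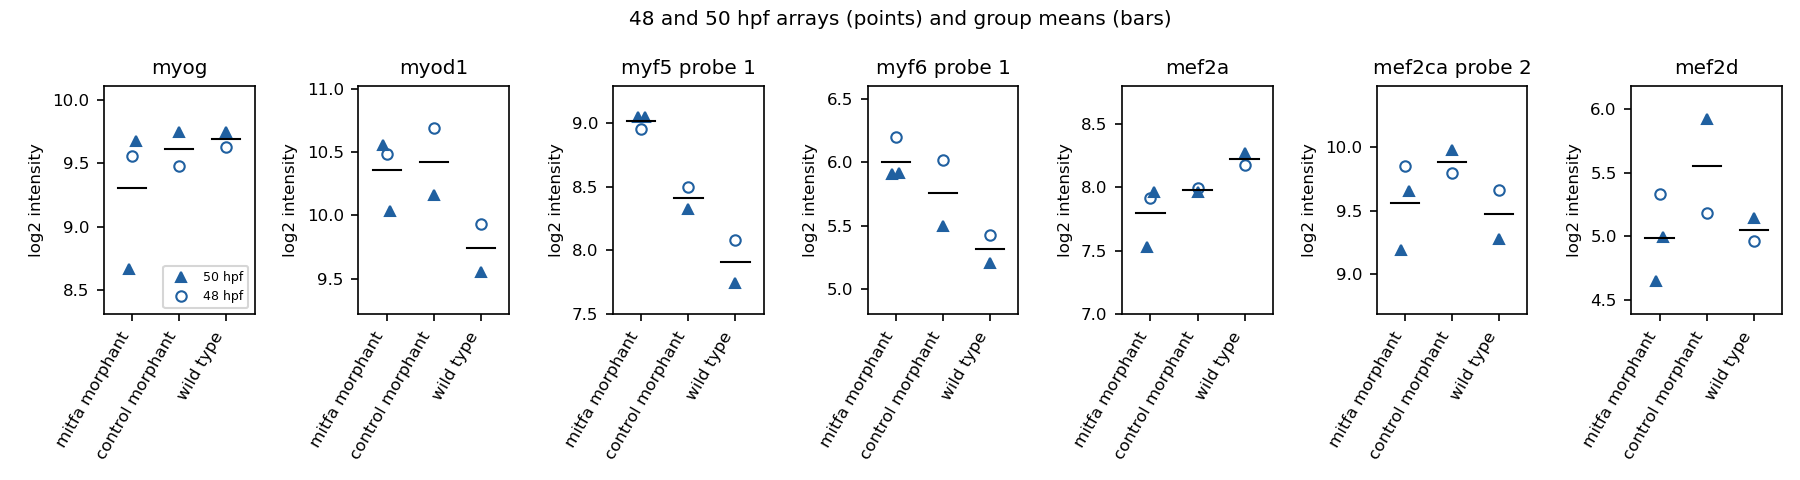
Log2 intensity of each member (brightest probe of this set) on the 7 arrays, in mitfa morphants, control morphants and WT, with triangles for 50 hpf, open circles for 48 hpf and bars at group means; every panel spans the same 1.8 log2 units. The 3 mitfa morphant values of myf5 (8.95 to 9.05) lie above all 4 others, those of mef2a lie below them with the nearest values both at 7.96, and in the remaining panels the values overlap.

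Differences of similar size stood between control morphants and WT, where no member passed the adjusted test. The control morphants read 10.69 and 10.16 for myod1, against 9.93 and 9.56 in WT (0.68 ± 0.21, limma unadjusted p = 0.017, adjusted p = 0.25). They were higher also for the brighter myf5 probe (0.50 ± 0.15, adjusted p = 0.25) and the brighter myf6 probe (0.44 ± 0.13, adjusted p = 0.24), whereas the dimmer myf6 probe went the other way (-0.39 ± 0.22, adjusted p = 0.41). This comparison called 0% of probes, with 4881 of 30508 at an unadjusted p under 0.05. Between 50 hpf and 48 hpf, with treatment in the fit, no member passed, in a comparison that called 0.0983% of probes. The differences of myod1 (-0.35 ± 0.16, adjusted p = 0.43), the dimmer myf5 probe (-0.74 ± 0.23, limma unadjusted p = 0.018, adjusted p = 0.27), the brighter myf6 probe (-0.34 ± 0.10, adjusted p = 0.27) and mef2ca probe 3 (-0.25 ± 0.09, adjusted p = 0.34) lay over 2 SE below 0. The dimmer myf6 probe differed by 0.07 ± 0.17, with the opposite sign to the brighter one. At 48 and 50 hpf it was the dimmest of the 11 member probes (mean log2 of 4.35, against 5.74 for the brighter myf6 probe). The mef2d probe (5.17) and the dimmer myf5 probe (5.44) came next. For myog and mef2a the differences were -0.04 ± 0.28 and -0.05 ± 0.14, with 95% intervals of -0.72 to 0.64 for myog and -0.40 to 0.30 for mef2a.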

How the data were processed

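Agilent Feature Extraction had background-subtracted and spatially detrended the deposited intensities within each array, with no step between arrays; the submitters' processing notes name version 10.5.1 and the scanner headers version 10.7.3.1. The authors' deposited log2 matrix, which they had quantile normalized, served as an alternative (r with the values used here at least 0.9999 on every array). Intensities were log2 transformed, outlier spots set to missing and the spots of a probe averaged. Quantile normalization was applied within each set (limma 3.58.1, R 4.3.3). Kept probes had a well-above-background mark on 75% or more of a set's arrays, and missing points were filled from their neighbours for the g test. Scanner files gave accessions only, of which 16624 probes matched an NCBI gene. Each gene was read from its brightest detected probe, and the other probes are given where they differ.

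The g test followed the study's rule. Cosine terms, DD minus LD, second minus first day and the arrays at 48 and 50 hpf were tested by limma, with p-values adjusted by Benjamini-Hochberg over the detected probes and a 5% threshold. The cosine and day fits took DD and LD together with a shared spread, so leaving out a DD array can change a call in LD. Functions were tested on simulated data. Members and lists were chosen with earlier results of these data known. From each list the genes past the threshold with the largest change, at most 4, are named. Number of arrays limits the precision. The pairing of DD with LD is by time point, since both were sampled together. Promoter and probe sequences, real-time PCR and clock morphants were not analysed here.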

Additional observations from a re-analysis of the deposited data

How the results depend on the processing

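Of the 7 members, the number called changed as follows. By the g test rule it was 2, against 4 without the first 24-h cycle and 1 without the second, with a straight line removed or with the 0.05 limit, and myog was called under every setting tried. Over all probes the rule called 12.7%, against 29.7% without the first cycle and 18.3% without the second. It called 17.1% with the line removed and 2.94% at the 0.05 limit. With 1 cycle left, 24 h was the length of the whole series. By the cosine fit in LD it was 1 (myog), against 4 without the first cycle, 3 with slide as a random block and 2 with a straight line removed, and 1 to 3 when 1 array was left out (3 without the DD array at 0 h and 2 without the LD array at 12 h). Over all probes this fit called 11.9%, against 24.9% without the first cycle, 23.8% with the slide block and 21.5% with the line removed. It called 14.4% without the DD array at 0 h and 12.6% without the LD array at 12 h. By the cosine fit in DD it was 0, against 2 with slide as a random block (myog and myod1) and 1 (myog) with a straight line removed or after normexp. Over all probes the DD fit called 3.11%, against 5.82% with the slide block, 2.92% with the line removed and 3.35% after normexp. For DD minus LD levels it was 0, and 0 to 1 when 1 array was left out (myf5 without either array at 16 h). Over all probes this comparison called 17.2%, against 14.4% without either array at 16 h. For the second day against the first it was 2, and 1 without clock time in the fit, and 2 to 3 when 1 array was left out (mef2a without the DD array at 8 or 32 h or the LD array at 4 or 28 h). Over all probes this comparison called 44.1%, against 37.1% without clock time. It called 41.1% without either of those DD arrays and 45.1% without either of those LD arrays. Within DD it was 1, and 1 to 2 when 1 array was left out (myf5 without the DD array at 0 or 24 h), with 24.5% of all probes called with or without these arrays. Within LD it was 1, against 2 after normexp and 0 without clock time, and 1 to 2 when 1 array was left out (myf6 without the DD array at 0, 16, 24 or 40 h). Over all probes the share within LD was 35.7%, against 35.1% after normexp and 27% without clock time. It was 38.3% without the DD array at 0 or 24 h and 35.3% without that at 16 or 40 h. In the mitfa morphants it was 0, against 1 (myf5) after normexp or with the strict filter. Over all probes that comparison called 1.2%, against 5.72% after normexp and 2.76% with the strict filter. The number was 0 by the methods' t-test, which called 272 probes (0.893%) at its own limits of p under 0.02 and a 2-fold change. By the Benjamini-Hochberg adjusted p of this t-test alone, with no fold limit, 73 probes passed. The study listed more genes than this as changed, and the reason was not tested. The number of members called was also 0 with age, which is also slide, as a block, a fit that called 0.0623% of all probes. The tests of rhythm between DD and LD, of age and of control injection called 0 members under all alternatives run. Over all probes they called at most 0.0847%, 0.262% and 0.0164%, in that order. The share of all probes called moved with the setting, from 0.0426% against the control morphants alone to 5.72% after normexp in the morphant comparison, from 32.2% with slide as a random block to 47.2% with the strict filter for the 2 days, and from 3.09% without the first cycle to 18.6% with the strict filter for DD minus LD. For the 2 days within DD it went from 13% with the slide block to 26.9% with the strict filter. Within LD it went from 19.8% to 38.9% under the same settings.

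Signs turned only for differences that passed no test. For DD minus LD they were myog 0.081 and myod1 0.13 without the first cycle, and mef2d -0.056 and myf6 -0.12 without the second. For the 2 days they were myod1 -0.0092 (75th-percentile scaling), -0.016 (normexp) and -0.014 (slide block), and in LD myf5 0.015 (normexp) and 0.031 (slide block). Other probes turned the sign for mef2ca probe 3 in DD minus LD (0.026), over the 2 days (0.14), within LD (0.22) and in the morphants (0.037), for myf5 probe 2 within LD (0.29) and for myf6 probe 2 in age (0.068) and control injection (-0.39). The morphant difference was 0.091 for mef2ca against WT alone and -0.066 for myod1 against control morphants alone, and mef2d with age was -0.011 after normexp. With 1 array left out, DD minus LD spanned -0.020 to 0.12 for mef2d, -0.0064 to 0.12 for myf6 and -0.042 to 0.055 for myod1. The day change spanned -0.13 to 0.0029 for mef2ca and -0.050 to 0.032 for myod1, within DD -0.10 to 0.10 for mef2ca and -0.0033 to 0.39 for mef2d, and within LD -0.060 to 0.21 for mef2d and -0.069 to 0.049 for myf5. The age difference spanned -0.11 to 0.038 for mef2a, -0.21 to 0.46 for mef2d and -0.17 to 0.19 for myog, control injection -0.29 to 0.14 for myog and the morphant difference -0.26 to 0.072 for mef2ca. The cause of these shifts was not tested. No paired analysis by replicate number was possible because the numbers were given in accession order and pair no samples.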
